A study of Homo sapiens with 12 samples.

Results

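The genes described here are 40 members of the machinery that stores neurotransmitter in synaptic vesicles and releases it by exocytosis, of 19923 protein-coding genes counted. They were chosen by name, as presynaptic vesicle, SNARE, active zone and endocytosis genes, but with earlier results of these data known. All 40 are in the count files: 6 vesicle membrane proteins, 3 synapsins, 7 synaptotagmins and related sensors, 8 SNAREs and their partners, 3 RAB3 GTPases, 9 active zone and priming factors and 4 endocytic proteins. Their transcripts were quantified by poly(A) RNA-seq in a pair of established human neuroblastoma lines, SK-N-BE2 and NGP, both labelled as MYCN-amplified and of WT genotype. STM2457, a small molecule, blocks METTL3, which methylates adenosines of mRNA to N6-methyladenosine (m6A). It was given at 12 µM to SK-N-BE2 and at 1 µM to NGP, and DMSO was the control in each line. All cells were collected after 6 days, with 3 replicates in each of the 4 groups and 12 libraries in all. The labels do not say whether replicates came from separate cultures, so p-values measure the spread between these libraries, which may be technical. Line, dose and sequencing run change together, so a difference between the responses of the lines cannot be assigned to any of them.

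Neurons pack transmitter into small vesicles that carry synaptophysin, SV2 and synaptogyrin proteins, tether them with synapsins and dock them at an active zone built from RIM, ELKS, bassoon and piccolo. Fusion is driven by SNARE proteins on the vesicle (VAMP) and on the plasma membrane (syntaxin, SNAP25), primed by UNC13 and CAPS proteins, clamped by complexins and triggered by calcium binding to synaptotagmins. The membrane is then retrieved by dynamin, amphiphysin, synaptojanin and clathrin adaptors. Neuroblastoma cells derive from the sympathoadrenal lineage and keep part of this programme, and its genes are used as a readout of neuronal maturation.

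The libraries held 47242379 to 58159937 counted reads. Levels are given in CPM, read counts scaled to library size, here on a TMM scale common to the 12 libraries, and all positions are GRCh38. METTL3 itself rose in both lines, from 54.3 ± 3.19 to 79.9 ± 1.42 CPM in SK-N-BE2 and from 40.6 ± 3.70 to 76.6 ± 2.40 CPM in NGP (SD, n = 3; edgeR adjusted p 0.000106 and 0.0003). Of 12 noradrenergic neuroblast markers, 11 reached 1 CPM in every group. Of 14 Schwann cell and fibroblast markers, 13 are in the files. Their summed level moved with treatment, from between 473.4 and 502.2 to between 661.0 and 726.4 CPM in SK-N-BE2 and from between 130.9 and 167.1 to between 487.9 and 605.3 CPM in NGP. Among them the Schwann cell genes CDH19 and FOXD3 had 0 reads in both SK-N-BE2 groups, and SOX10 and CDH19 had 0 reads in NGP with DMSO. At an edgeR adjusted p under 0.05, the fibroblast genes COL1A1, COL3A1, PDGFRB, DCN and LUM were higher in both lines, and THY1 in SK-N-BE2. The Schwann cell gene ERBB3 was higher in SK-N-BE2 but lower in NGP, where FOXD3 was also lower. Whether that marker shift plays a part in the values below was not tested. In the NGP controls, replicate 1 was the most distant library, with a chi-square per degree of freedom of 92.6 and 60.8 against the other replicates, which gave 11.0 between themselves.

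More of the vesicle genes rose than fell in SK-N-BE2, and more fell than rose in NGP. In SK-N-BE2 all synapsins and all RAB3 genes rose, with SYT11 and SYT13, though the calls of SYN1, RAB3A and RAB3B depended on single libraries. In NGP the active zone genes RIMS1, RIMS2 and ERC2 and the vesicle proteins SYT4, SYT5 and RPH3A fell, and SYT5 fell in SK-N-BE2 too. Of 37 members with enough reads to test in SK-N-BE2, 15 were higher and 4 lower with STM2457 at an edgeR adjusted p under 0.05. Among all 14013 genes tested in that line 54.7% were called, 26.9% higher and 27.8% lower. In NGP, also with 37 members tested, 4 were higher and 15 lower, against 41.7% of 13610 genes called, 19.4% higher and 22.2% lower. Of the members tested 51.4% were called in each line, a little under that background in SK-N-BE2 and a little over it in NGP, whereas the higher share in SK-N-BE2 and the lower share in NGP were 40.5% each. Treated and control libraries did not overlap in SK-N-BE2 for 17 members that lay above and 6 below (33.1% and 29.1% of all genes), and in NGP for 6 above and 18 below (26.9% and 27.8% of all genes). The members' median log2 fold change was 0.22 in SK-N-BE2, where that of all genes was -0.02, and -0.33 in NGP, where that of all genes was -0.03. With bulk RNA, fewer cells of a type and less RNA per cell cannot be told apart. Leaving out single libraries moved the called counts in both directions. The 15 higher members of SK-N-BE2 ran from 11 to 19 and the 15 lower members of NGP from 13 to 21. The 4 higher members of NGP became 1 without STM2457 replicate 1, 2 without STM2457 replicate 2 or 3 and 6 without DMSO replicate 2. The 4 lower members of SK-N-BE2 ran from 3 to 6, the latter without DMSO replicate 2.

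**Figure D1:**
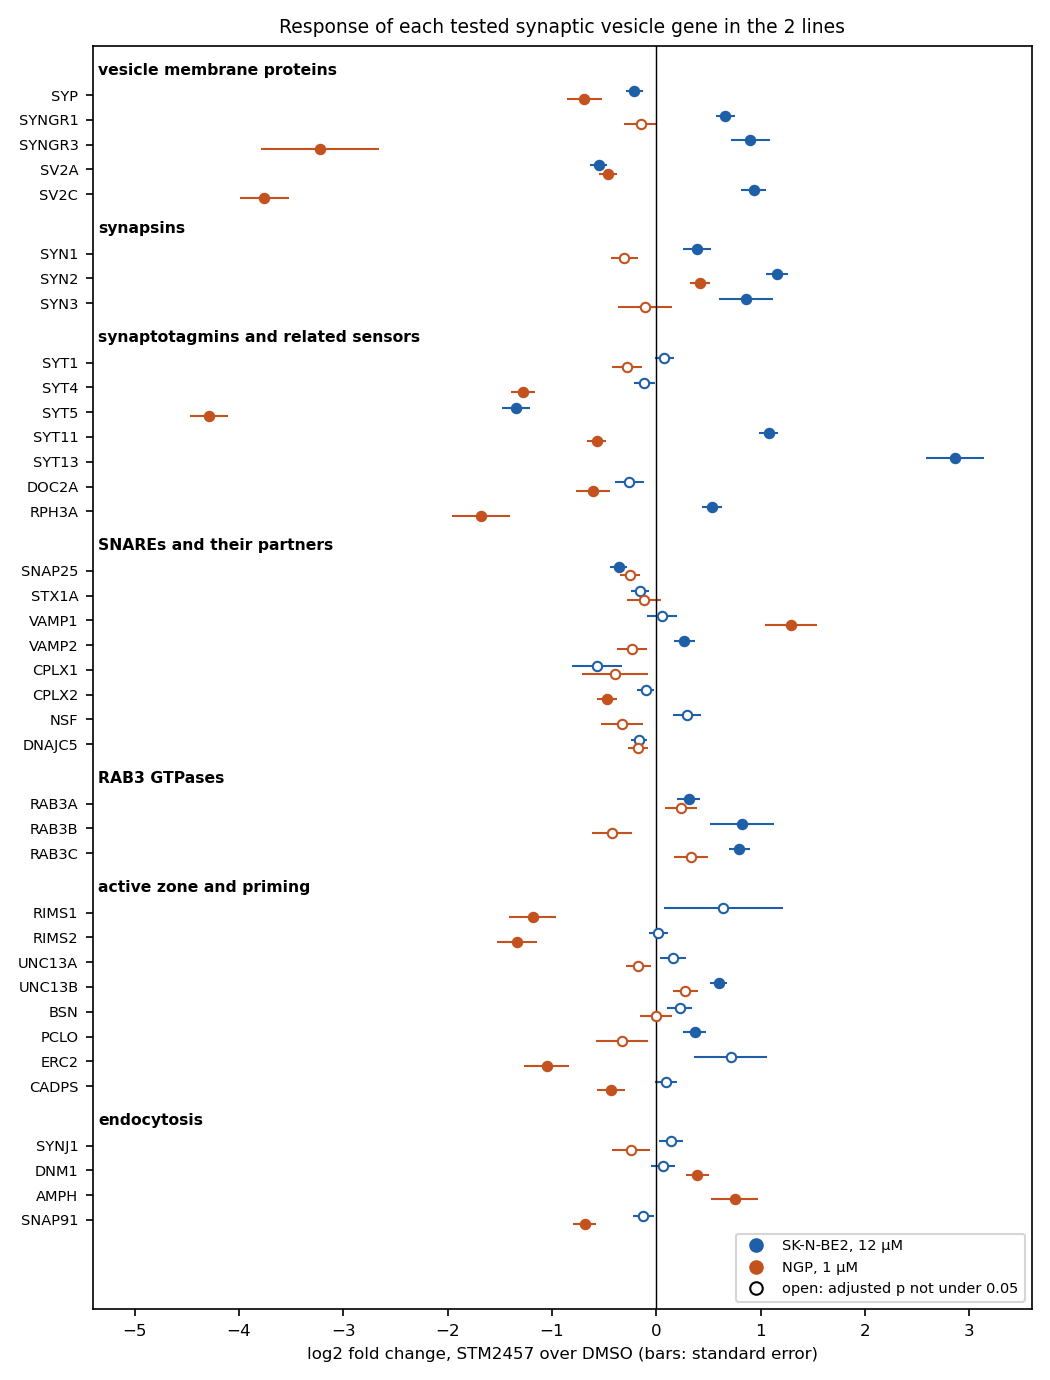
Log2 fold change of each tested member, STM2457 over DMSO, by role, for SK-N-BE2 (blue) and NGP (orange); bars are standard errors and open circles mark an adjusted p that was not under 0.05. The blue points lie mostly right of 0 (15 called higher, 4 lower) and the orange points mostly left of it (4 higher, 15 lower).

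The response itself was compared between lines as SK-N-BE2 minus NGP over all 12 libraries, with 38 members tested. The difference was positive and called for 18 members and negative and called for 1, VAMP1. Over all 14731 genes 30.9% were called, 17.0% positive and 13.9% negative. The median difference was 0.56 for members and 0.02 for all genes. Of 36 members tested in each line separately, 4 were called in both with a rise in SK-N-BE2 but a fall in NGP: SV2C, SYNGR3, SYT11 and RPH3A. That class held 2.72% of the 12952 genes tested in both lines, and the reverse class, with 2.25% of genes, held 0 members. SYN2 was the 1 member called higher in both lines (10.5% of genes) and SYP, SV2A and SYT5 were the 3 called lower in both (10.8% of genes). Counted without regard to a call, 19 of 36 members had a positive log2 fold change in SK-N-BE2 and a negative one in NGP, against 18.1% of genes.

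**Figure D2:**
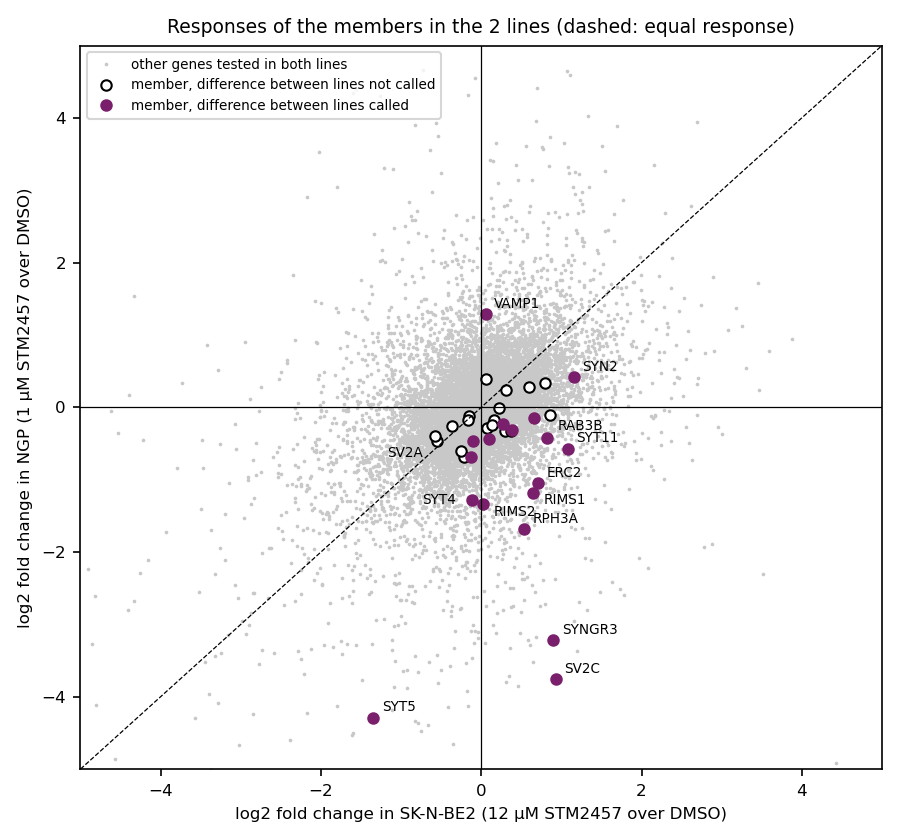
Log2 fold change in NGP (vertical axis) against that in SK-N-BE2 (horizontal axis) for members and, in grey, the other genes tested in both lines; the dashed line marks equal responses. Most filled points, the members with a called difference between lines, lie below the dashed line, with SV2C, SYNGR3 and SYT5 farthest down and VAMP1 above it.

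Among the vesicle membrane proteins, 5 of 6 could be tested, and in SK-N-BE2 SV2C, SYNGR3 and SYNGR1 rose while SV2A and SYP fell. In NGP SV2C, SYNGR3, SYP and SV2A fell. SV2C (chr5:76083383-76353939, plus strand), a glycoprotein of the SV2 family known as the receptor of botulinum neurotoxin A, measured 25.7, 20.2 and 18.8 CPM under DMSO and 42.5, 45.0 and 39.1 under STM2457 in SK-N-BE2. In NGP SV2C measured 46.3, 86.3 and 68.7 CPM under DMSO and 4.40, 5.07 and 5.35 under STM2457. The NGP drop was 13.6-fold in the means and left each treated library below all 3 controls, whereas in SK-N-BE2 the treated libraries all lay above. The SV2C log2 fold change was 0.93 ± 0.12 (SE; adjusted p = 1.98e-05, edgeR) in SK-N-BE2 and -3.76 ± 0.23 (SE; adjusted p = 1.65e-05, edgeR) in NGP. The lines differed by 4.70 ± 0.27 (SE; adjusted p = 1.14e-07, edgeR), the widest gap among the members.

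SYNGR3 (chr16:1989660-1994275, plus strand), a synaptogyrin of the vesicle membrane, showed the same pattern at a lower level. Its libraries measured 3.11, 2.76 and 4.06 CPM under DMSO and 7.33, 5.37 and 6.33 under STM2457 in SK-N-BE2. In NGP SYNGR3 measured 2.47, 1.70 and 1.21 CPM under DMSO and 0.0423, 0.168 and 0.349 under STM2457, the latter from 28 reads over 3 libraries against 272 reads in the controls. The groups did not overlap in either line. The SYNGR3 log2 fold change was 0.90 ± 0.18 (SE; adjusted p = 0.00098, edgeR) in SK-N-BE2 and -3.22 ± 0.57 (SE; adjusted p = 0.00248, edgeR) in NGP, a difference of 4.13 ± 0.55 (SE; adjusted p = 8.84e-05, edgeR). Its paralog SYNGR1 (chr22:39349925-39385575, plus strand) measured 40.1, 33.2 and 37.1 CPM under DMSO and 62.5, 57.1 and 59.3 under STM2457 in SK-N-BE2. In NGP SYNGR1 measured 65.5, 42.2 and 48.6 CPM under DMSO and 48.4, 44.8 and 47.2 under STM2457, and there the groups overlapped. The SYNGR1 log2 fold change was 0.66 ± 0.09 (SE; adjusted p = 4.43e-05, edgeR) in SK-N-BE2 and -0.15 ± 0.16 (SE; adjusted p = 0.478, edgeR) in NGP, and the difference was 0.83 ± 0.19 (SE; adjusted p = 0.00509, edgeR). Without NGP DMSO replicate 1, the highest of its group, the uncalled NGP value was 0.046.

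SV2A and SYP, the broadly expressed vesicle proteins of the group, fell in both lines. SV2A (chr1:149903318-149917844, minus strand), the binding site of the drug levetiracetam, measured 222, 242 and 218 CPM under DMSO and 165, 159.7 and 153 under STM2457 in SK-N-BE2. In NGP SV2A measured 171, 166 and 158 CPM under DMSO and 122, 118 and 119 under STM2457. All 6 treated libraries lay below the controls of their line. The SV2A log2 fold change was -0.55 ± 0.08 (SE; adjusted p = 7.68e-05, edgeR) in SK-N-BE2 and -0.46 ± 0.09 (SE; adjusted p = 0.0033, edgeR) in NGP, with a difference of -0.08 ± 0.11 (SE; adjusted p = 0.635, edgeR) that was not called. SYP (chrX:49187804-49200259, minus strand), synaptophysin, the usual marker of synaptic and neuroendocrine vesicles, measured 175, 173 and 174 CPM under DMSO and 162, 143 and 156 under STM2457 in SK-N-BE2. In NGP SYP measured 179, 113 and 131 CPM under DMSO and 86.1, 93.7 and 81.3 under STM2457. Replicates of the NGP controls were widely spread, yet the treated libraries stayed below them. The SYP log2 fold change was -0.21 ± 0.08 (SE; adjusted p = 0.0363, edgeR) in SK-N-BE2 and -0.69 ± 0.17 (SE; adjusted p = 0.0107, edgeR) in NGP, and the difference of 0.49 ± 0.19 (SE; adjusted p = 0.0643, edgeR) missed the threshold. The small SYP fall in SK-N-BE2 depended on single libraries: its adjusted p was 0.0582 without DMSO replicate 3 and 0.0536, 0.176 and 0.102 without STM2457 replicates 1, 2 and 3. It was also lost in a joint fit of all 12 libraries (adjusted p 0.317) and with no filter on low counts (adjusted p 0.0507). In turn, the SYP difference had an adjusted p of 0.00902 without NGP DMSO replicate 2 and 0.0479 with no filter. SV2B, with 16 and 7 reads in the SK-N-BE2 groups and 4 and 2 in those of NGP, was not tested.

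The synapsins, phosphoproteins that cluster vesicles in reserve, all rose in SK-N-BE2, and SYN2 also rose in NGP. SYN2 (chr3:12004388-12192032, plus strand) measured 34.6, 27.0 and 27.2 CPM under DMSO and 71.7, 64.2 and 66.9 under STM2457 in SK-N-BE2, 2.28-fold higher in the means. In NGP SYN2 measured 71.2, 63.6 and 65.5 CPM under DMSO and 92.5, 84.0 and 90.3 under STM2457. Treated libraries lay above controls in both lines, and the SK-N-BE2 libraries reached the level of the NGP controls. The SYN2 log2 fold change was 1.16 ± 0.10 (SE; adjusted p = 1.18e-06, edgeR) in SK-N-BE2 and 0.42 ± 0.10 (SE; adjusted p = 0.00949, edgeR) in NGP, with a difference of 0.75 ± 0.15 (SE; adjusted p = 0.0016, edgeR). The NGP rise had an adjusted p of 0.0587 without STM2457 replicate 1 and 0.0524 without STM2457 replicate 3. SYN1 (chrX:47571901-47619857, minus strand) measured 43.4, 29.4 and 43.95 CPM under DMSO and 58.0, 49.1 and 49.2 under STM2457 in SK-N-BE2. In NGP SYN1 measured 29.0, 24.2 and 24.3 CPM under DMSO and 20.1, 23.2 and 19.1 under STM2457. The SYN1 groups did not overlap in either line, high with the drug in SK-N-BE2 and low with it in NGP.

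The SYN1 log2 fold change was 0.39 ± 0.13 (SE; adjusted p = 0.0267, edgeR) in SK-N-BE2 and -0.31 ± 0.13 (SE; adjusted p = 0.0864, edgeR) in NGP, and the difference was 0.71 ± 0.21 (SE; adjusted p = 0.0208, edgeR). The SK-N-BE2 call had an adjusted p of 0.0638 without DMSO replicate 2, the lowest control, and 0.118 without STM2457 replicate 1, the highest treated library. The SYN1 difference had an adjusted p of 0.0607 without SK-N-BE2 STM2457 replicate 1, 0.0509 without NGP STM2457 replicate 1 and 0.0530 without NGP STM2457 replicate 3. Of the SYN1 exon length, 24.9% is shared with a long noncoding RNA on the same strand, so its value is uncertain. SYN3 rose in SK-N-BE2 from 1.87 ± 0.781 to 3.50 ± 0.143 CPM (SD, n = 3), with a log2 change of 0.86 ± 0.26 (SE; adjusted p = 0.0126, edgeR). Its NGP value, -0.11 ± 0.26 (SE; adjusted p = 0.755, edgeR), was not called, nor was the SYN3 difference, 0.98 ± 0.40 (SE; adjusted p = 0.0761, edgeR). That difference was called without SK-N-BE2 DMSO replicate 1 (adjusted p 0.0154) and without NGP DMSO replicate 1 (adjusted p 0.0427).

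The synaptotagmins and related sensors held both the largest rise (SYT13 in SK-N-BE2) and the largest fall (SYT5 in NGP) among the members. Of 7 members tested in SK-N-BE2, SYT11, SYT13 and RPH3A rose and SYT5 fell, and of 6 tested in NGP SYT4, SYT5, SYT11, DOC2A and RPH3A fell. SYT1 (chr12:78863993-79452008, plus strand), the calcium trigger of fast release, measured 176, 149 and 140.2 CPM under DMSO and 170.4, 167 and 165 under STM2457 in SK-N-BE2. In NGP SYT1 measured 99.6, 139 and 139.9 CPM under DMSO and 106, 94.8 and 109.7 under STM2457. The groups overlapped in both lines. The SYT1 log2 fold change was 0.07 ± 0.09 (SE; adjusted p = 0.509, edgeR) in SK-N-BE2 and -0.28 ± 0.14 (SE; adjusted p = 0.15, edgeR) in NGP, and the difference was 0.37 ± 0.18 (SE; adjusted p = 0.13, edgeR). Without NGP DMSO replicate 1, the lowest control, the NGP value was -0.43 (edgeR adjusted p 0.000875) and the SYT1 difference 0.49 (edgeR adjusted p 0.00561).

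SYT5 (chr19:55171196-55180289, minus strand), a synaptotagmin of dense-core and synaptic vesicles, fell in both lines and by more in NGP. It measured 49.5, 43.3 and 58.7 CPM under DMSO and 24.0, 17.2 and 19.9 under STM2457 in SK-N-BE2. In NGP SYT5 measured 15.6, 12.2 and 13.3 CPM under DMSO and 0.635, 0.736 and 0.717 under STM2457, 19.7-fold lower in the means. All treated libraries lay far below the controls of their line, and those of NGP were under 1 CPM. The SYT5 log2 fold change was -1.34 ± 0.13 (SE; adjusted p = 2.7e-06, edgeR) in SK-N-BE2 and -4.29 ± 0.18 (SE; adjusted p = 3.06e-06, edgeR) in NGP, and the difference was 2.96 ± 0.24 (SE; adjusted p = 1.42e-06, edgeR). SYT11 (chr1:155859567-155885199, plus strand), a synaptotagmin that does not bind calcium and restrains endocytosis, had the highest level per length of all members in treated SK-N-BE2. Its SK-N-BE2 libraries measured 189, 178 and 158 CPM under DMSO and 411, 369 and 355 under STM2457. In NGP SYT11 measured 252, 251 and 282 CPM under DMSO and 183, 167 and 176 under STM2457. The treated NGP libraries fell to about the level of the SK-N-BE2 controls. The SYT11 log2 fold change was 1.08 ± 0.09 (SE; adjusted p = 8.12e-07, edgeR) in SK-N-BE2 and -0.57 ± 0.09 (SE; adjusted p = 0.00175, edgeR) in NGP, a difference of 1.66 ± 0.13 (SE; adjusted p = 1.08e-06, edgeR).

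SYT4 (chr18:43267892-43277535, minus strand), an activity-regulated synaptotagmin of dense-core vesicles, measured 58.1, 63.3 and 48.0 CPM under DMSO and 54.0, 54.5 and 51.8 under STM2457 in SK-N-BE2. In NGP SYT4 measured 239, 294 and 272 CPM under DMSO and 118, 102 and 111 under STM2457. Only the NGP groups were apart. The SYT4 log2 fold change was -0.12 ± 0.10 (SE; adjusted p = 0.352, edgeR) in SK-N-BE2 and -1.28 ± 0.11 (SE; adjusted p = 7.47e-05, edgeR) in NGP, a difference of 1.18 ± 0.15 (SE; adjusted p = 6.42e-05, edgeR). RPH3A (chr12:112570380-112898881, plus strand), rabphilin, an effector of RAB3 and RAB27 on vesicles, measured 51.7, 41.1 and 44.3 CPM under DMSO and 62.9, 72.8 and 67.8 under STM2457 in SK-N-BE2. In NGP RPH3A measured 4.10, 7.69 and 5.78 CPM under DMSO and 1.38, 2.15 and 1.94 under STM2457. Groups were separate in both lines and in opposite order. The RPH3A log2 fold change was 0.53 ± 0.10 (SE; adjusted p = 0.000483, edgeR) in SK-N-BE2 and -1.68 ± 0.28 (SE; adjusted p = 0.00184, edgeR) in NGP, and the difference was 2.22 ± 0.28 (SE; adjusted p = 5.04e-05, edgeR).

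SYT13 (chr11:45240302-45286341, minus strand), an atypical synaptotagmin, was close to absent from NGP. It measured 1.42, 0.650 and 0.575 CPM under DMSO and 7.22, 6.88 and 5.87 under STM2457 in SK-N-BE2, 7.54-fold higher in the means. In NGP SYT13 had 11 reads with DMSO and 10 with STM2457 over 3 libraries each, too few to test that line. The SYT13 log2 fold change in SK-N-BE2 was 2.86 ± 0.28 (SE; adjusted p = 2.15e-06, edgeR). The fitted difference between lines, 2.96 ± 0.93 (SE; adjusted p = 0.0268, edgeR), rests on those few NGP reads, and its adjusted p was 0.0642 without NGP DMSO replicate 2 and 0.0725 without NGP DMSO replicate 3. DOC2A, a high-affinity sensor of asynchronous release, fell in NGP from 27.5 ± 5.29 to 18.0 ± 1.58 CPM (SD, n = 3), with a log2 change of -0.61 ± 0.16 (SE; adjusted p = 0.0154, edgeR). The adjusted p of that fall was 0.0520 without DMSO replicate 3, 0.0719 without STM2457 replicate 1 and 0.0573 without STM2457 replicate 3. In SK-N-BE2 the DOC2A value was -0.26 ± 0.14 (SE; adjusted p = 0.134, edgeR), and it was called without DMSO replicate 2 (-0.42, edgeR adjusted p 0.00349). The DOC2A difference between lines, 0.36 ± 0.24 (SE; adjusted p = 0.276, edgeR), was not called. Exons of genes on the other strand overlap 5.54% of the DOC2A exons, which unstranded counting cannot separate.

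**Figure D3:**
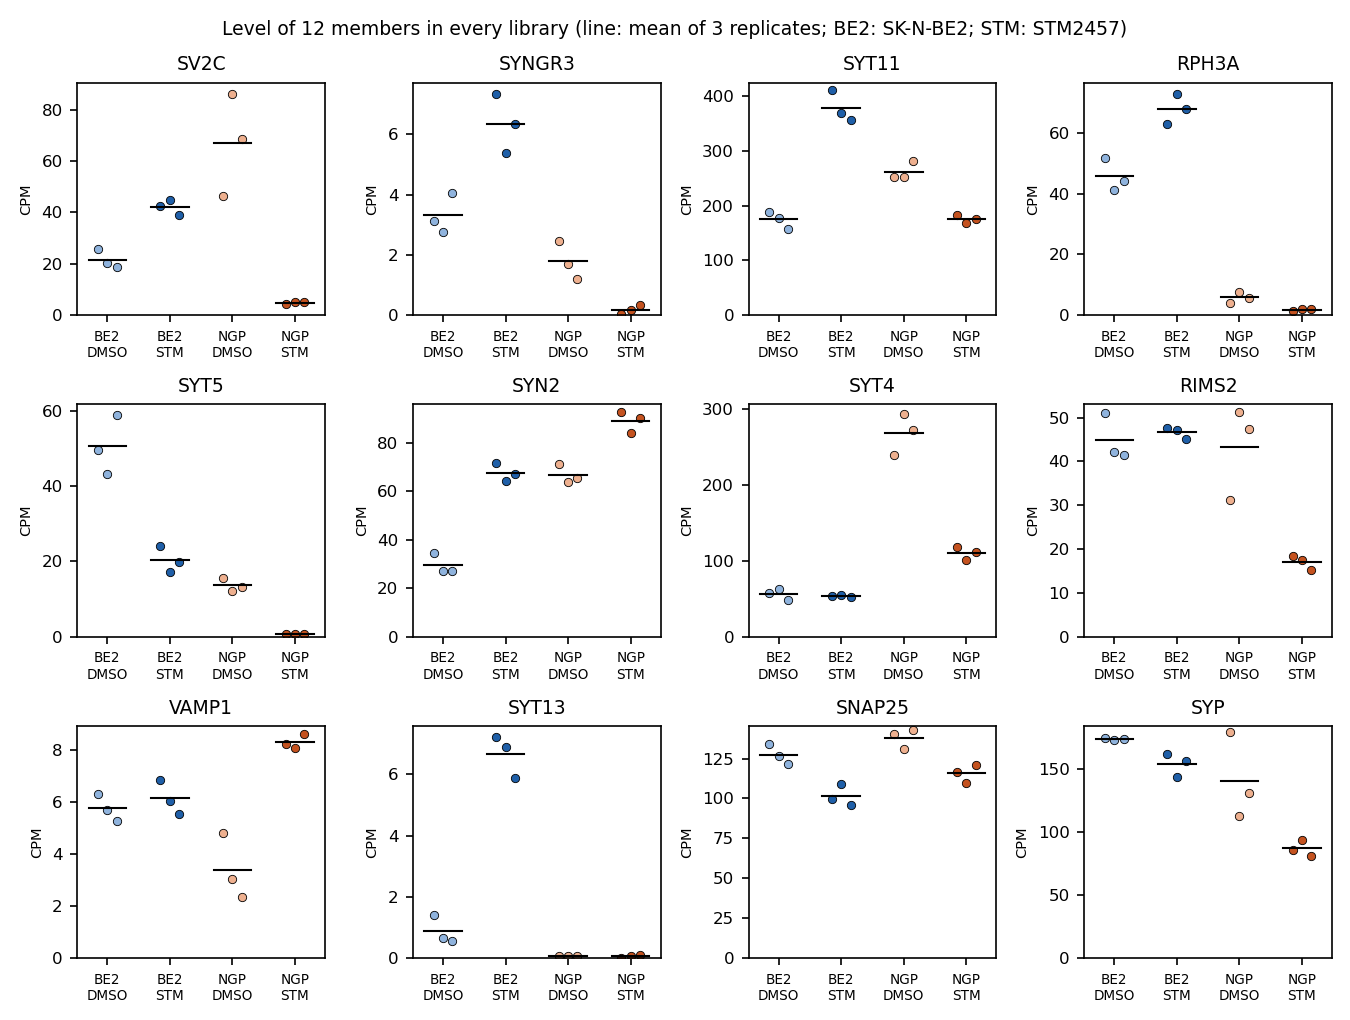
CPM of 12 members in each library (vertical axes, each starting at 0) by line and treatment; dots are replicates and lines the means of 3. In SV2C, SYNGR3, SYT11 and RPH3A the treated dots sit above the controls in SK-N-BE2 and below them in NGP, while SYT5 sits below in both and SYN2 above in both.

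Of the 8 SNAREs and partners tested in each line, 2 were called in SK-N-BE2 (VAMP2 higher, SNAP25 lower) and 2 in NGP (VAMP1 higher, CPLX2 lower). SNAP25 (chr20:10218830-10307418, plus strand), the plasma membrane SNARE cut by botulinum toxin A, measured 134, 126 and 121 CPM under DMSO and 99.6, 109 and 95.9 under STM2457 in SK-N-BE2. In NGP SNAP25 measured 141, 131 and 143 CPM under DMSO and 116, 109.9 and 121 under STM2457. Treated libraries were below the controls in both lines by a small margin. The SNAP25 log2 fold change was -0.36 ± 0.08 (SE; adjusted p = 0.00205, edgeR) in SK-N-BE2 and -0.25 ± 0.09 (SE; adjusted p = 0.0541, edgeR) in NGP, with a difference of -0.10 ± 0.12 (SE; adjusted p = 0.569, edgeR). In NGP it was called without DMSO replicate 1 (edgeR adjusted p 0.0145), with DESeq2 (adjusted p 0.0495) and in the joint fit (adjusted p 0.0367). STX1A (chr7:73699206-73719672, minus strand), syntaxin 1A, measured 54.8, 55.5 and 58.2 CPM under DMSO and 54.0, 47.9 and 52.9 under STM2457 in SK-N-BE2. In NGP STX1A measured 32.9, 22.9 and 21.9 CPM under DMSO and 23.9, 24.5 and 23.0 under STM2457. Apart from NGP DMSO replicate 1, which was high, the libraries of each line were close together. In SK-N-BE2 the treated STX1A libraries still lay below the controls by a small margin, and the NGP groups overlapped. The STX1A log2 fold change was -0.16 ± 0.08 (SE; adjusted p = 0.124, edgeR) in SK-N-BE2 and -0.12 ± 0.16 (SE; adjusted p = 0.598, edgeR) in NGP, with a difference of -0.03 ± 0.19 (SE; adjusted p = 0.939, edgeR). Without NGP DMSO replicate 1 the uncalled STX1A value of NGP was 0.091.

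Of the vesicle SNAREs, VAMP1 rose in NGP and VAMP2 in SK-N-BE2. VAMP1 (chr12:6462237-6470987, minus strand) measured 6.31, 5.70 and 5.29 CPM under DMSO and 6.87, 6.06 and 5.54 under STM2457 in SK-N-BE2. In NGP VAMP1 measured 4.81, 3.06 and 2.36 CPM under DMSO and 8.23, 8.10 and 8.63 under STM2457. Every treated NGP library lay above the controls, and in SK-N-BE2 the groups overlapped. The VAMP1 log2 fold change was 0.06 ± 0.14 (SE; adjusted p = 0.757, edgeR) in SK-N-BE2 and 1.29 ± 0.25 (SE; adjusted p = 0.00391, edgeR) in NGP, a difference of -1.22 ± 0.30 (SE; adjusted p = 0.00677, edgeR). The uncalled SK-N-BE2 value was just under 0 without DMSO replicate 3 (-0.0015) or STM2457 replicate 1 (-0.026). VAMP2 (chr17:8159149-8163546, minus strand) measured 46.0, 53.3 and 40.2 CPM under DMSO and 60.1, 56.1 and 56.1 under STM2457 in SK-N-BE2. In NGP VAMP2 measured 92.0, 69.4 and 63.6 CPM under DMSO and 66.1, 61.3 and 64.0 under STM2457. The SK-N-BE2 groups were narrowly apart and the NGP groups overlapped.

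The VAMP2 log2 fold change was 0.27 ± 0.10 (SE; adjusted p = 0.0388, edgeR) in SK-N-BE2 and -0.23 ± 0.14 (SE; adjusted p = 0.23, edgeR) in NGP, and the difference was 0.51 ± 0.19 (SE; adjusted p = 0.0492, edgeR). The SK-N-BE2 rise was not called without any 1 of DMSO replicates 1 and 3 and STM2457 replicates 1, 2 and 3 (edgeR adjusted p 0.0668, 0.158, 0.122, 0.0729 and 0.0757), nor in the joint fit (0.0716). The VAMP2 difference was lost without any library but SK-N-BE2 DMSO replicate 2 and NGP DMSO replicates 2 and 3, with adjusted p from 0.0746 to 0.143. It was also lost with halved counts (adjusted p 0.051), with DESeq2 size factors in edgeR (0.0558) and with a filter at a mean of 1 CPM (0.0534). Exons of another gene on the same strand share 12.4% of the VAMP2 exons, and exons on the other strand overlap 9.47% of the VAMP1 exons, so both values are uncertain. CPLX2 (chr5:175796310-175884021, plus strand), a complexin that clamps and assists the SNARE complex, measured 348, 319 and 325 CPM under DMSO and 319, 325 and 305 under STM2457 in SK-N-BE2. In NGP CPLX2 measured 668, 613 and 561 CPM under DMSO and 430.3, 456 and 439 under STM2457. It was lower in each treated NGP library than in any control, and the SK-N-BE2 groups overlapped. The CPLX2 log2 fold change was -0.10 ± 0.08 (SE; adjusted p = 0.311, edgeR) in SK-N-BE2 and -0.47 ± 0.10 (SE; adjusted p = 0.00552, edgeR) in NGP, with a difference of 0.38 ± 0.12 (SE; adjusted p = 0.0252, edgeR). That difference was not called without SK-N-BE2 DMSO replicate 2 or 3, SK-N-BE2 STM2457 replicate 1 or 2 or NGP STM2457 replicate 1 or 3 (adjusted p 0.0530, 0.0599, 0.0594, 0.0673, 0.0688 and 0.0588). CPLX1, the disassembly ATPase NSF and the vesicle chaperone DNAJC5 were called in neither line.

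The RAB3 GTPases, which recruit effectors to the vesicle, all rose in SK-N-BE2. In NGP edgeR called 0 of 3, as did DESeq2, and 0 had an unadjusted p under 0.05, where 41.7% of all genes were called. RAB3C rose from 79.2 ± 11.1 to 141 ± 10.3 CPM in SK-N-BE2 (SD, n = 3), with a log2 change of 0.80 ± 0.10 (SE; adjusted p = 2.55e-05, edgeR). Its NGP value was 0.33 ± 0.16 (SE; adjusted p = 0.138, edgeR), called without DMSO replicate 2 (0.50, edgeR adjusted p 0.0278). The treated RAB3C libraries of NGP also lay above the controls. Its difference between lines, 0.48 ± 0.20 (SE; adjusted p = 0.0918, edgeR), was not called. RAB3A rose from 97.5 ± 16.8 to 124 ± 4.04 CPM in SK-N-BE2, by 0.31 ± 0.11 (SE; adjusted p = 0.0283, edgeR) on the log2 scale. The RAB3A rise had an adjusted p of 0.0637 without DMSO replicate 2 and 0.0906, 0.0586 and 0.0760 without STM2457 replicates 1, 2 and 3, and in the joint fit it was 0.0606. In NGP the RAB3A value of 0.23 ± 0.15 (SE; adjusted p = 0.249, edgeR) was called without DMSO replicate 1 (adjusted p 0.0492). The RAB3A difference between lines, 0.09 ± 0.20 (SE; adjusted p = 0.788, edgeR), was not called. Exons on the other strand overlap 9.24% of the RAB3A exons.

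RAB3B (chr1:51907956-51990700, minus strand) differed in response between the lines. It measured 2.35, 1.34 and 0.843 CPM under DMSO and 2.52, 3.16 and 2.61 under STM2457 in SK-N-BE2. In NGP RAB3B measured 14.0, 24.0 and 20.4 CPM under DMSO and 15.3, 13.4 and 14.7 under STM2457. Treated SK-N-BE2 libraries all lay above the controls, and the NGP groups overlapped through DMSO replicate 1. The RAB3B log2 fold change was 0.82 ± 0.31 (SE; adjusted p = 0.0354, edgeR) in SK-N-BE2 and -0.42 ± 0.19 (SE; adjusted p = 0.108, edgeR) in NGP, a difference of 1.26 ± 0.38 (SE; adjusted p = 0.023, edgeR). The SK-N-BE2 rise held without DMSO replicate 1 alone; without DMSO replicates 2 and 3 and STM2457 replicates 1, 2 and 3 its adjusted p was 0.0937, 0.130, 0.0516, 0.116 and 0.0592. The RAB3B difference was not called without SK-N-BE2 DMSO replicate 2 or 3 or STM2457 replicate 2 (adjusted p 0.0627, 0.0549 and 0.0594). Without NGP DMSO replicate 1 the RAB3B value of NGP was -0.61 (edgeR adjusted p 0.00114).

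At the active zone, UNC13B and PCLO rose in SK-N-BE2 and RIMS1, RIMS2, ERC2 and CADPS fell in NGP, of 8 members tested in each line. All 8 had a positive log2 fold change in SK-N-BE2, 6 of them without a call, and 7 of 8 had a negative one in NGP. Over all genes the median was -0.02 in SK-N-BE2 and -0.03 in NGP. Some of the uncalled signs changed when a library was left out (RIMS1, RIMS2 and CADPS in SK-N-BE2, PCLO in NGP), and BSN in NGP was at -0.0046. RIMS2 (chr8:103500696-104256094, plus strand), a RIM scaffold that couples vesicles to calcium channels, measured 51.0, 42.2 and 41.4 CPM under DMSO and 47.6, 47.2 and 45.1 under STM2457 in SK-N-BE2. In NGP RIMS2 measured 31.3, 51.2 and 47.3 CPM under DMSO and 18.5, 17.5 and 15.3 under STM2457. The lines started level, and only the NGP libraries moved apart. The RIMS2 log2 fold change was 0.02 ± 0.09 (SE; adjusted p = 0.872, edgeR) in SK-N-BE2 and -1.34 ± 0.19 (SE; adjusted p = 0.000832, edgeR) in NGP, a difference of 1.37 ± 0.22 (SE; adjusted p = 0.00035, edgeR). The uncalled SK-N-BE2 value was -0.020 without DMSO replicate 2 and -0.035 without DMSO replicate 3.

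RIMS1 (chr6:71886703-72403143, plus strand), the founding RIM protein, measured 0.316, 0.183 and 0.153 CPM under DMSO and 0.167, 0.627 and 0.269 under STM2457 in SK-N-BE2, from 35 and 55 reads. In NGP RIMS1 measured 5.65, 10.0 and 8.83 CPM under DMSO and 3.37, 3.81 and 3.57 under STM2457. The NGP groups were apart and the sparse SK-N-BE2 groups overlapped. The RIMS1 log2 fold change was 0.64 ± 0.57 (SE; adjusted p = 0.36, edgeR) in SK-N-BE2 and -1.19 ± 0.22 (SE; adjusted p = 0.00346, edgeR) in NGP, with a difference of 1.83 ± 0.57 (SE; adjusted p = 0.0241, edgeR). SK-N-BE2 STM2457 replicate 2 set the direction of the uncalled value, which was -0.048 without it. The RIMS1 difference had an adjusted p of 0.0618 without SK-N-BE2 DMSO replicate 2, 0.0682 without DMSO replicate 3 and 0.133 without STM2457 replicate 2. ERC2 (chr3:55508311-56468467, minus strand), an ELKS family scaffold, measured 0.527, 0.487 and 0.460 CPM under DMSO and 0.777, 1.06 and 0.652 under STM2457 in SK-N-BE2. In NGP ERC2 measured 4.77, 6.51 and 7.93 CPM under DMSO and 2.77, 3.34 and 3.12 under STM2457. Groups did not overlap in either line. The ERC2 log2 fold change was 0.71 ± 0.35 (SE; adjusted p = 0.101, edgeR) in SK-N-BE2 and -1.05 ± 0.22 (SE; adjusted p = 0.00508, edgeR) in NGP, a difference of 1.78 ± 0.35 (SE; adjusted p = 0.00174, edgeR). The SK-N-BE2 value was called in the joint fit (adjusted p 0.0385).

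CADPS (chr3:62398346-62875416, minus strand), the priming factor CAPS1 of dense-core vesicles, measured 105, 75.3 and 84.9 CPM under DMSO and 98.5, 99.2 and 92.2 under STM2457 in SK-N-BE2. In NGP CADPS measured 25.5, 34.0 and 31.1 CPM under DMSO and 22.1, 20.8 and 24.1 under STM2457. NGP libraries were lower with the drug by a small margin, and the SK-N-BE2 groups overlapped. The CADPS log2 fold change was 0.09 ± 0.11 (SE; adjusted p = 0.491, edgeR) in SK-N-BE2 and -0.43 ± 0.14 (SE; adjusted p = 0.0322, edgeR) in NGP, with a difference of 0.54 ± 0.18 (SE; adjusted p = 0.0382, edgeR). The NGP fall was not called without DMSO replicate 2 or 3 or any STM2457 replicate (adjusted p 0.0905, 0.0953, 0.109, 0.128 and 0.0626). The CADPS difference kept its call only without SK-N-BE2 DMSO replicate 1, NGP DMSO replicate 1 or NGP STM2457 replicate 3, and ran from 0.0536 to 0.109 without each other library. In SK-N-BE2 the value was called without DMSO replicate 1 (0.23, edgeR adjusted p 0.0299) and was -0.0098 without DMSO replicate 2.

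UNC13B, a Munc13 priming factor, rose in SK-N-BE2 from 81.3 ± 5.29 to 126 ± 7.22 CPM (SD, n = 3), by 0.60 ± 0.08 (SE; adjusted p = 4.59e-05, edgeR) on the log2 scale. PCLO, the giant scaffold piccolo, rose there from 36.9 ± 5.83 to 48.9 ± 3.31 CPM, by 0.37 ± 0.11 (SE; adjusted p = 0.0119, edgeR) on the log2 scale, with an adjusted p of 0.0623 without STM2457 replicate 2 and 0.132 in the joint fit. In NGP the UNC13B value of 0.28 ± 0.12 (SE; adjusted p = 0.0901, edgeR) was called without DMSO replicate 2 (adjusted p 0.0394) and in the joint fit (adjusted p 0.0216). The PCLO value of NGP, -0.33 ± 0.25 (SE; adjusted p = 0.326, edgeR), turned on single controls: it was -0.56 (edgeR adjusted p 0.0145) without DMSO replicate 1 and 0.015 without DMSO replicate 2. The differences between lines were 0.33 ± 0.14 (SE; adjusted p = 0.0845, edgeR) for UNC13B and 0.71 ± 0.30 (SE; adjusted p = 0.0856, edgeR) for PCLO. Without NGP DMSO replicate 1 both differences were called (adjusted p 0.00738 and 0.00274), as was that of RAB3C (adjusted p 0.0034). UNC13A and bassoon (BSN) were called in neither line. CADPS2 had 2 reads, both in SK-N-BE2 STM2457 replicate 1.

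Among the 4 endocytic members, DNM1 and AMPH rose and SNAP91 fell in NGP. In SK-N-BE2 edgeR called 0 of 3 tested, as did DESeq2, and 0 had an unadjusted p under 0.05, where 54.7% of all genes were called. SNAP91 (chr6:83552880-83709691, minus strand), the clathrin adaptor AP180, measured 125, 101 and 108 CPM under DMSO and 95.2, 116 and 102 under STM2457 in SK-N-BE2. In NGP SNAP91 measured 58.2, 71.8 and 66.8 CPM under DMSO and 39.2, 39.2 and 43.4 under STM2457. Treated NGP libraries were clearly below the controls, and the SK-N-BE2 groups overlapped. The SNAP91 log2 fold change was -0.12 ± 0.10 (SE; adjusted p = 0.312, edgeR) in SK-N-BE2 and -0.69 ± 0.11 (SE; adjusted p = 0.00184, edgeR) in NGP, a difference of 0.58 ± 0.16 (SE; adjusted p = 0.0125, edgeR). AMPH, amphiphysin, had 0 reads in the SK-N-BE2 controls and 4 with STM2457, against 440 and 710 reads in NGP. Its NGP control mean was at least 152-fold higher than the SK-N-BE2 control, taken at a floor of 3 reads over the group.

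AMPH rose in NGP from 2.89 ± 0.778 to 4.84 ± 0.237 CPM (SD, n = 3), by 0.75 ± 0.23 (SE; adjusted p = 0.0281, edgeR) on the log2 scale, with adjusted p of 0.0663, 0.0690 and 0.0850 without STM2457 replicates 1, 2 and 3. DNM1, neuronal dynamin, rose there from 124 ± 11.5 to 163 ± 14.2 CPM, by 0.39 ± 0.11 (SE; adjusted p = 0.0198, edgeR) on the log2 scale. The DNM1 rise had an adjusted p of 0.0853 without DMSO replicate 3 and 0.0567 and 0.0640 without STM2457 replicates 1 and 2. Its difference between lines, -0.32 ± 0.18 (SE; adjusted p = 0.189, edgeR), was called without SK-N-BE2 DMSO replicate 2 (adjusted p 0.0213). SYNJ1, synaptojanin, was called in neither line.

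The starting levels differed between the lines as well. Compared per kilobase of exon, the most abundant members with DMSO were RAB3A (54.6 CPM per kb), SV2A (47.6) and CPLX2 (47.1) in SK-N-BE2 and CPLX2 (87.5), SYT4 (62.4) and SYT11 (50.5) in NGP. With STM2457 SYT11 (73.0 CPM per kb) and RAB3A (69.3) led in SK-N-BE2 and CPLX2 (63.0), SNAP25 (34.5) and SYT11 (33.9) in NGP. Between the DMSO groups, 14 members were higher and 12 lower in SK-N-BE2 than in NGP of 38 tested, while 71.1% of all genes were called in that contrast, 35.7% higher and 35.4% lower. SYT13 (12.2-fold, from 143 reads against 11 in NGP), RPH3A (7.80-fold), SYT5 (3.69-fold) and RAB3A (3.53-fold) were higher in SK-N-BE2. RIMS1 (37.6-fold), ERC2 (13.0-fold), RAB3B (12.9-fold) and SYT4 (4.76-fold) were higher in NGP. These contrasts share their DMSO libraries with the treatment comparisons above and are not independent of them.

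Other genes of the vesicle cycle were read off the same fits. Of 69 such genes, 63 could be tested in SK-N-BE2, and 15 were higher (23.8%) and 17 lower (27.0%), near the 26.9% and 27.8% of all genes, with a median log2 fold change of -0.05. In NGP 9 were higher (13.9%) and 22 lower (33.9%) of 65 tested, where all genes gave 19.4% and 22.2%, and the median was -0.25. That NGP total of 31 fell to 20 without DMSO replicate 3, 17 without STM2457 replicate 1 and 19 without STM2457 replicate 3. The sensor SYT2 rose in both lines, by 1.35 ± 0.23 (SE; adjusted p = 0.000272, edgeR) in SK-N-BE2 and 3.04 ± 0.22 (SE; adjusted p = 3.36e-05, edgeR) in NGP, though exons on the other strand overlap 27.0% of its exons. DOC2B, a paralog of DOC2A, fell in both, by -1.74 ± 0.26 (SE; adjusted p = 8.47e-05, edgeR) and -1.57 ± 0.17 (SE; adjusted p = 0.00019, edgeR). RAB3IP, an exchange factor for RAB8, fell in NGP from 63.4 ± 5.42 to 8.54 ± 1.19 CPM (SD, n = 3).

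On the receiving side of the synapse, 10 postsynaptic density genes were higher and 1 lower of 25 tested in SK-N-BE2 (all genes, 26.9% and 27.8%). In NGP 4 were higher and 9 lower of 27 (14.8% and 33.3%, against 19.4% and 22.2%). Their medians were 0.32 and -0.23, and the NGP total of 13 was 7 without STM2457 replicate 1 and 8 without STM2457 replicate 3. CAMK2B, a subunit of the calcium/calmodulin kinase, rose by 0.50 ± 0.15 (SE; adjusted p = 0.0146, edgeR) in SK-N-BE2 and had a log2 fold change of -2.83 ± 0.21 (SE; adjusted p = 3.71e-05, edgeR) in NGP. DLGAP3, a scaffold partner of PSD-95, had 1.09 ± 0.17 (SE; adjusted p = 0.000123, edgeR) and -0.85 ± 0.20 (SE; adjusted p = 0.00967, edgeR). CAMK2A, another subunit of that kinase and the 1 gene lower in SK-N-BE2, named after its values were seen, fell in both lines, by -1.94 ± 0.47 (SE; adjusted p = 0.00328, edgeR) and -1.73 ± 0.49 (SE; adjusted p = 0.0212, edgeR), from 147 to 39 and from 162 to 47 reads over 3 libraries. The list of constitutive exocytosis genes, which serve secretion in all cells, also holds SNAREs of transport inside the cell. It had 7 higher and 5 lower of 24 tested in SK-N-BE2 (29.2% and 20.8%, against 26.9% and 27.8% of all genes). In NGP it had 3 higher and 6 lower of 24 (12.5% and 25.0%, against 19.4% and 22.2%). Such SNAREs include VTI1A, higher in SK-N-BE2, SEC22B, STX5, STX6 and STX16, lower there, and YKT6, STX5 and STX6, lower in NGP. The Golgi syntaxin STX5 fell in both lines, by -0.93 ± 0.09 (SE; adjusted p = 2.6e-06, edgeR) and -1.38 ± 0.15 (SE; adjusted p = 0.000232, edgeR). Of the vesicular transmitter transporters, 1 was higher and 3 lower of 6 tested in SK-N-BE2, and 1 higher and 1 lower of 5 in NGP, too few to set against those shares. The monoamine transporter SLC18A1 rose in NGP, by 1.70 ± 0.36 (SE; adjusted p = 0.00585, edgeR), and the GABA and glycine transporter SLC32A1 fell in SK-N-BE2, by -1.70 ± 0.16 (SE; adjusted p = 1.31e-06, edgeR).

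**Figure D4:**
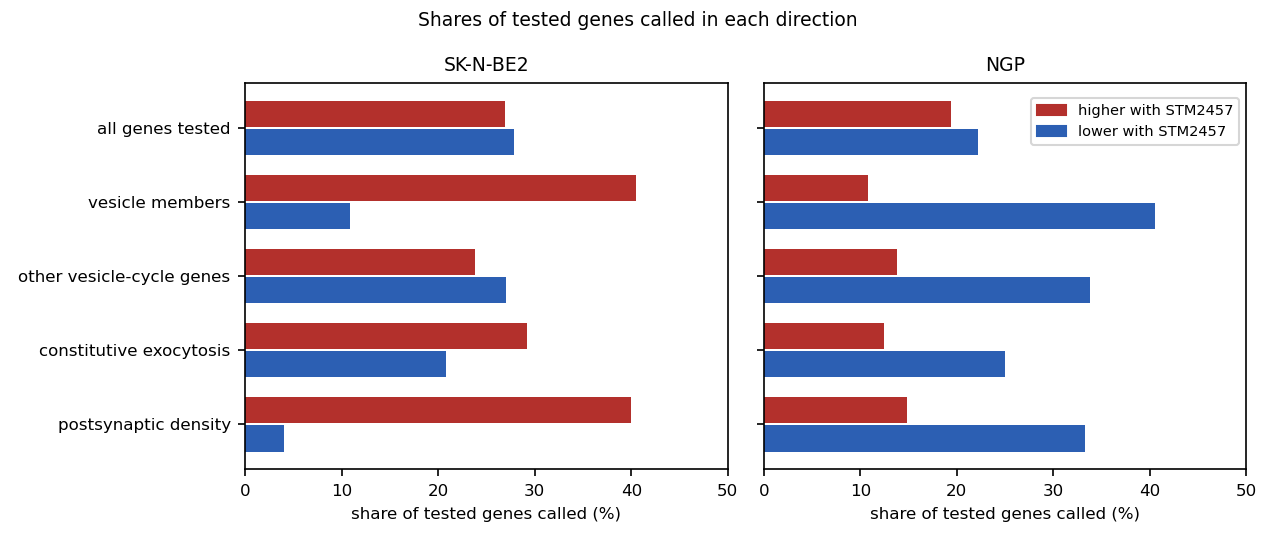
Share of the tested genes of each list called higher (red) or lower (blue) with STM2457, in percent, for SK-N-BE2 (left) and NGP (right). Members show 40.5% higher and 10.8% lower in SK-N-BE2 and the mirror image in NGP, while the top bars give the shares over all genes tested.

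Several members hold the core letters of the RE1 element, the sequence bound by REST, a repressor that silences neuronal genes in cells that are not neurons. The RE1 core, a pair of fixed blocks around 2 free bases whose letters are the capitals of the matches printed here, was searched on both strands within 5000 bases of the gene start given in the files. It occurred at 5 of 40 members (12.5%), against 150 of 19923 genes in all (0.753%) and 102 of the 14671 genes tested in a line (0.695%). In RefSeq promoter windows (250 bases before to 50 after the start, GRCh38.p14), 2 of 32 members with a window held the core, SYN1 and RPH3A, against 18 of 35116 windows (0.0513%). The RPH3A match lies at a RefSeq start far downstream of the gene start in the files, which makes 6 members in all. A match is a description of letters and not a measured binding site. The 21 bases at each match are shown because these 6 members share it, read 5′ to 3′ on the strand of the core, with the fixed core letters in capitals.
SYT4 (chr18:43277294-43277314, minus strand): cttCAGCACCtcGGACAGaac
SYT5 (chr19:55180201-55180221, minus strand): gatCAGCACCcgGGACAGcgc
SNAP25 (chr20:10219671-10219691, plus strand): tttCAGCACCggGGACAGcgg
SYP (chrX:49200123-49200143, minus strand): ctcCAGCACCgtGGACAGagc
SYN1 (chrX:47620071-47620091, minus strand): cttCAGCACCgcGGACAGtgc
RPH3A (chr12:112791549-112791569, minus strand): ggtCAGCACCacGGACAGcgc
The SYT4 and SYT5 matches lie in untranslated exon sequence, those of SNAP25 and SYP in an intron after the start and those of SYN1 and RPH3A upstream.

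The 250 bases before the RefSeq start of SYN1 and RPH3A are printed because these are the 2 members whose RefSeq window holds the core, with motif letters in capitals. They read 5′ to 3′ along the gene and come from RefSeq, GRCh38.p14.
SYN1 (chrX:47619858-47620107, minus strand): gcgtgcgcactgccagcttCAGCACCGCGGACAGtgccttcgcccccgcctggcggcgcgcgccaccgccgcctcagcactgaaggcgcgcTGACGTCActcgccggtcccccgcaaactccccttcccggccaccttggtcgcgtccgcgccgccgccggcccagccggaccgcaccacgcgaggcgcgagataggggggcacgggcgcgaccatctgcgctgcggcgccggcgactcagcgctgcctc
RPH3A (chr12:112791498-112791747, plus strand): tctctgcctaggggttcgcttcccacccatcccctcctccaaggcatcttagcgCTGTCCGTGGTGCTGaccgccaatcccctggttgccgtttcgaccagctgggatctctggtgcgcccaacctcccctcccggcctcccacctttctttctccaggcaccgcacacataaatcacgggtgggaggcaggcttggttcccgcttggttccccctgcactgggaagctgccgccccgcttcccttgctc
The first capitals in SYN1 and the capitals in RPH3A, where the core lies on the other strand, are the RE1 core with its 2 free bases. The second capitals in SYN1 are TGACGTCA, the cAMP response element, found in 1.85% of all windows. The E-box CACGTG, which MYCN binds, was found in 1 of 32 member windows (UNC13A) and in 7.26% of all windows.

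All 6 members with the core were lower with STM2457 in NGP in each treated library, and 4 were called: SYT5, RPH3A, SYT4 and SYP. Groups that do not overlap and lie below made up 27.8% of the genes tested in NGP. In SK-N-BE2 SYN1 and RPH3A were higher and SYT5, SNAP25 and SYP lower. Genes outside the 40 members with the core within 5000 bases had 12 higher and 30 lower of 93 tested in NGP (12.9% and 32.3%, against 19.4% and 22.2% of all genes), and their median log2 fold change was -0.29. In SK-N-BE2 the same genes had 21 higher and 28 lower of 88 tested (23.9% and 31.8%), near the 26.9% and 27.8% of all genes, with a median of -0.13. REST (chr4:56907876-56966678, plus strand), looked up after the matches and named after its values were seen, measured 6.46, 5.64 and 5.33 CPM under DMSO and 7.37, 8.23 and 8.07 under STM2457 in SK-N-BE2. In NGP REST measured 4.28, 6.21 and 7.93 CPM under DMSO and 19.8, 17.1 and 17.3 under STM2457. It was higher in every treated library than in the controls of its line. The REST log2 fold change was 0.40 ± 0.13 (SE; adjusted p = 0.0206, edgeR) in SK-N-BE2 and 1.56 ± 0.21 (SE; adjusted p = 0.000736, edgeR) in NGP, a difference of -1.14 ± 0.26 (SE; adjusted p = 0.00397, edgeR). Whether the REST level has a part in the values of the 6 members was not tested.

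**Figure D5:**
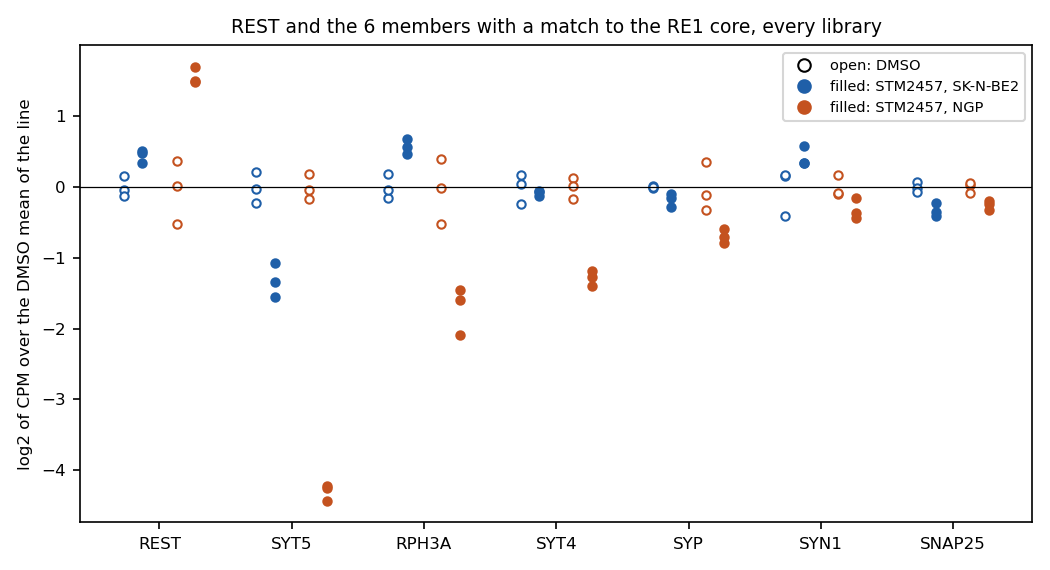
Log2 of each library's CPM over the DMSO mean of its line, for REST and the 6 members with the RE1 core; open circles are DMSO and filled circles STM2457. REST sits above 0 in the treated libraries of both lines, and in NGP the treated libraries of all 6 members sit below the controls.

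The letters GGACT, a form of the m6A consensus, were counted in the exons of each member. Their density ranged from 0.232 per kb (SYT4) to 1.85 per kb (RPH3A), with a median of 0.863 per kb against 0.924 per kb over the 14671 genes tested. Across the 37 members tested in each line, the rank correlation of that density with the log2 fold change was -0.03 in SK-N-BE2, and in NGP it was 0.09. The points share the same libraries, so these values describe the members and carry no test. Methylation of these transcripts was not analysed here.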

How the data were processed

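The titles gave each sample's cell line, treatment and replicate number. Per the file headers, reads on exons were summed by gene name by the authors in featureCounts 2.0.5 (paired mode), for the protein-coding genes of GENCODE 33 on GRCh38 and no strand option. The deposited values are raw counts, 1 column per library, and multi-mapping reads were not counted. The recorded command has no option to count pairs and most low counts are even, so 1 fragment may have given 2 reads. The submitters' processing notes list FastQC 0.11.5, Trimmomatic 0.36, HISAT2 2.1.0 and Subread 1.5.3 without roles, and the featureCounts version in the headers differs from that of Subread. Per the labels' protocols, poly(A) RNA was taken from total RNA and SMART cDNA libraries were prepared. The headers name a separate sequencing run for each line.

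From the counts, edgeR 4.0.16 (R 4.3.3) ran its quasi-likelihood test in each line on 6 libraries, with filterByExpr (minimum count 10), TMM scaling, Benjamini-Hochberg adjustment over all genes tested and a threshold of 0.05. Differences between responses and between DMSO groups were contrasts over 12 libraries. Each SE was derived from the F statistic of the log2 fold change. No spike-in was used, so changes are relative to the other genes. At 47242379 to 58159937 reads per library, counting error is small except for genes with few reads, and 3 replicates limit the precision of the rest. Floors of 3 reads cover counting error only. Exon overlaps were computed in GENCODE 44 on GRCh38, and genes with over 5% of their exons shared are treated as uncertain.

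Values in every library are given for members called in both lines, called for the difference between lines, or called in a line with a log2 fold change of 1 or more in size, where the higher group reaches 1 CPM, and always for SYP, SYN1, SNAP25, SYT1 and STX1A, 24 members in all. The other 16 are given by group means, counts or name. From each other list at most 3 called genes per line with the largest change were eligible. The 40 members, the 6 other lists and the search for the RE1 core were chosen with earlier results of these data known. Alternatives tried were DESeq2 size factors within edgeR, no filter, a filter at a mean of 1 CPM, DESeq2 1.42.0, counts halved and rounded up, a replicate block, a joint fit of all libraries and leaving out each library. Promoter sequences come from RefSeq (GRCh38.p14), of which 32 members had a window, and other bases from the GRCh38 genome.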

Additional observations from a re-analysis of the deposited data

Results flagged for a closer look

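The response to STM2457 differed between SK-N-BE2 and NGP for 19 members by the edgeR test of the difference itself, and line, dose and sequencing run cannot be told apart in it. The difference is given as SK-N-BE2 minus NGP on the log2 scale. The gap was widest for SV2C at 4.70 and SYNGR3 at 4.13, followed by SYT13 at 2.96, SYT5 at 2.96, RPH3A at 2.22, SYT11 at 1.66 and SYT4 at 1.18. At the active zone it was 1.83 for RIMS1, 1.78 for ERC2, 1.37 for RIMS2 and 0.54 for CADPS. The remaining positive differences were 1.26 for RAB3B, 0.83 for SYNGR1, 0.75 for SYN2, 0.71 for SYN1, 0.58 for SNAP91, 0.51 for VAMP2 and 0.38 for CPLX2. VAMP1 had a difference of -1.22, the 1 called member with a negative difference.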

How the results depend on the processing

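No called response of a member to STM2457, and no called difference between lines, reversed under any alternative run; directions between DMSO groups were not followed. The members called were 19 in SK-N-BE2, 19 in NGP, 19 for the difference and 26 between DMSO groups. Leaving out each library gave 14 to 23, 14 to 26, 14 to 25 and 25 to 27, the NGP maximum without DMSO replicate 1. Other settings gave 16 to 20, 18 to 21, 17 to 20 and 25 to 27. With the replicate number as a block the counts were 20, 18, 17 and 25. Deviations of same-numbered libraries correlated in SK-N-BE2 at -0.141, 0.134 and 0.00159, and for NGP the values were 0.00461, -0.139 and 0.0653. Differently numbered libraries of SK-N-BE2 ran from -0.322 to 0.31. Such correlations show no clear shared effect of a number, but they cannot settle whether the numbers pair the libraries. The block lost the calls of SYP in SK-N-BE2 (adjusted p 0.0544), CADPS in NGP (0.0555) and VAMP2 and CPLX2 for the difference (0.0552 and 0.0566).

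Of the calls of members named with values, 13 of 19 in SK-N-BE2, 14 of 19 in NGP and 12 of 19 for the difference held in every alternative. Among other lists, in NGP the vesicle-cycle count of 31 ran from 17 to 42 and the postsynaptic count of 13 from 7 to 16 over the libraries left out, and the constitutive exocytosis count of 9 was 14 in the joint fit. The causes were not tested. Uncalled values that changed sign when a library was left out ran, in SK-N-BE2, from -0.026 to 0.13 for VAMP1, -0.048 to 1.02 for RIMS1, -0.035 to 0.12 for RIMS2, -0.0098 to 0.23 for CADPS and -0.079 to 0.14 for DNM1. In NGP they ran from -0.28 to 0.046 for SYNGR1, -0.29 to 0.066 for SYN3, -0.23 to 0.091 for STX1A and -0.56 to 0.015 for PCLO. For the difference they ran from -0.26 to 0.081 for STX1A and -0.063 to 0.20 for RAB3A. Depth limits SV2B, CADPS2, AMPH in SK-N-BE2, SYT13 in NGP and RIMS1 in SK-N-BE2, which rest on few reads.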
